A study of Mus musculus with 8 samples.

Results

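The genes described here encode the proteins of the cytosolic ribosome. They were chosen by symbol, as genes named Rpl or Rps with a number, Rplp with a number, or Rpsa, without the ribosomal S6 kinases and without pseudogene symbols, and with a mean raw count over 5 across the libraries. Of the 22430 genes in the count table, 90 matched by symbol and 87 passed the count minimum, 52 of the large and 35 of the small subunit. The 3 that did not pass are Rpl3l, Rpl10l and Rpl39l, with mean counts of at most 0.875. Among the 87 members, 77 encode the proteins of the mature ribosome, 1 gene per protein. The others are the paralogues Rpl22l1, Rpl36al, Rpl7l1 and Rps27l, the retrogenes Rpl27rt, Rpl35rt, Rplp1rt and Rps27rt, Rps23rg1, which the symbol marks as a retrogene of Rps23, and Rps19bp1, whose product binds Rps19 and is not itself a ribosomal protein. Fau and Rack1, which also encode ribosomal proteins, carry other names and were followed separately.

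Each library came from a whole brain hemisphere of a different mouse, 4 at the young adult age (6m) and 4 at the aged one (24m). All were males of the inbred strain C57Bl/6JRj, with no transgene or treatment named for either group. The RNA itself was passed through nanopores (ONT direct RNA sequencing), although the sample labels name a short-read poly(A) kit. The authors mapped reads to GRCm39 and counted them per gene. In a hemisphere, fewer cells of a type and less RNA per cell cannot be told apart.

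A ribosome is made of a small subunit, which holds the mRNA and reads the codons, and a large subunit, which joins the amino acids and releases the growing chain through a tunnel. Each subunit carries 1 copy of nearly all its proteins, and the cell makes them in matched amounts. Most ribosomal protein mRNAs start with a short tract of C and T bases (the 5' terminal oligopyrimidine or TOP tract), through which the mTORC1 pathway and the RNA-binding protein Larp1 control their translation. In neurons, mRNAs for ribosomal proteins are also found in dendrites and axons.

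The start of each member was read from the GRCm39 sequence, 50 bases to either side of the annotated transcript start, to look for runs of C and T near it. A run anywhere in this window counted, also upstream of the start. Such a run need not be the TOP tract, which lies at the 5' end of the mRNA, and the shares below are not shares of TOP mRNAs. In 46 of 87 members (52.9%) this window held a run of at least 8 C or T bases on the sense strand, which reads as the mRNA. The share was 34.3% of the 9349 tested genes with a window. The longest run had a median of 8 bases over the members and 6 over all tested genes. The 6 letters CTTTCC were found on the sense strand in 13.8% of the members and 4.86% of all tested genes. On the other strand the shares were 5.75% and 4.35%. A run of at least 8 was found in 60.4% of the members later called lower at 24m and in 43.6% of those not called. This difference was not tested. Rpl31, Rpl36al, Rpl8, Rpsa and Rps27 are shown as members called lower, and Rpl4, Rps2 and Rpl13a as members not called. Rps29 is shown as the member with the lowest log2FC of the small subunit, and had no long run. The windows shown do not stand for all members called lower. The longest run was often under 8 bases in the members called lower with the smallest p. In the large subunit it was 6 bases (Rpl21), 7 (Rpl10), 5 (Rpl7), 28 (Rpl27rt) and 8 (Rpl36al). In the small subunit it was 4 (Rps29), 12 (Rpsa), 6 (Rps4x), 5 (Rps28) and 6 (Rps3a1). Capitals mark the longest run of C and T in the window, read on the sense strand from 5' to 3'. The runs shown begin between 34 bases before the annotated start (Rps29) and 33 bases after it (Rpl4). Starts are those of the annotation and were not checked against reads.
Rpl31 (chr1:39406905-39406934, plus strand): ctcgccacaCCTCTTCCTCCTCgcctcccc
Rpl36al (chr12:69231211-69231240, minus strand): ggctccgcgcaTCCTCTCTggcagttgcag
Rpl8 (chr15:76788271-76788300, plus strand): gacccgtctaTTTCCTCTTTCggccttgct
Rpsa (chr9:119956768-119956797, plus strand): gagcggaagTTCTCCCTTTTTgcttagcct
Rps27 (chr3:90120939-90120968, minus strand): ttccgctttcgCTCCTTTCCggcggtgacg
Rpl4 (chr9:64080639-64080668, plus strand): acaagtgacaagTCTTTCCTTTTCCTgtgg
Rps2 (chr17:24939072-24939101, plus strand): cggcgCCTCCCTCTTCTTCTTCTTCgggag
Rpl13a (chr7:44778146-44778175, minus strand): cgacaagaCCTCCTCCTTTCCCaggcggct
Rps29 (chr12:69205978-69206007, minus strand): cccgcccagccagCCTTagaaatgtcactc

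Several members cannot be counted apart from a near-identical gene, which the coding sequence shows. The coding sequences of Rps27 and its retrogene Rps27rt, each 252 bases long, were the same at every base. Rpl35 and its retrogene Rpl35rt, each 369 bases long, matched at 99.7% of bases. Rps27l, a paralogue that arose as a separate gene, differed from Rps27 at 60 of 252 bases. The first 30 coding bases are shown for the Rps27 genes, in the order parent, retrogene and paralogue. Capitals mark the bases at which Rps27l differs from the other Rps27 genes.
Rps27: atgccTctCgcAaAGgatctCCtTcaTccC
Rps27rt: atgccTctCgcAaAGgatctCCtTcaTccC
Rps27l: atgccCctGgcTaGAgatctGTtAcaCccT

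The counts of these pairs kept a fixed ratio. The count of Rps27rt was 1.10 to 1.15 times that of Rps27 in the 8 libraries, that of Rpl35rt 1.05 to 1.08 times that of Rpl35, and that of Rps23rg1 1.01 to 1.05 times that of Rps23. Rps23rg1 matches Rps23 at 99.5% of bases over 92.8% of the Rps23 coding sequence, on the opposite strand. The genes of each of these 3 pairs cannot be told apart here. The ratio of Rps27l to Rps27, in contrast, ranged from 0.0430 to 0.0655. Across the annotated transcripts, 82 of the 87 members had at least 1 copy matching at least 95% of bases over at least 50% of the coding sequence, with a median of 6 copies and a maximum of 60 for Rpl21. Rpl8, Rplp1rt, Rps19bp1 and Rps27l were among those with none. The strand and multi-mapping settings of the authors' count are not given in the sources used here, so reads on such copies could be split, lost or counted on more than 1 row. Single members are uncertain to that extent, and so is the share of all counts that the members hold. Rpl13a and Gm45713, which overlaps it on the same strand, had nearly the same count in each library (1861 and 1865 in 6m replicate 1). For 36 members such a copy lies in a gene that has its own row in the table. The counts of such a row can include other transcripts of that gene. Summed with these rows, the log2 ratio of the mean 24m to the mean 6m level was below 0 for all 36. These are not 36 separate results. Some copy rows held few or no counts (0 for Akr1cl), and members that are copies of each other, such as Rps27 and Rps27rt, have the same sum. Where reads were counted on both rows, the sum repeats them. For some members described singly the summed ratio is given, with no test.

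Together the members took 52862 to 102654 counts per library, out of gene totals of 573152 to 1255424. They made up 9.12% to 9.30% of all gene counts in the 6m libraries (9.23% ± 0.0830, SD, n = 4). In the 24m libraries the share was 9.15% in replicate 1, 7.37% in replicate 2, 7.84% in replicate 3 and 8.18% in replicate 4 (8.13% ± 0.754, SD, n = 4). The aged replicate 1 lay within the range of the 6m libraries and the other 3 below it. The large subunit genes held 4.92% to 5.05% of the counts at 6m and 4.01% to 5.0% at 24m, and the small subunit genes 4.2% to 4.26% and 3.36% to 4.15%. The ratio of large to small subunit counts ranged from 1.17 to 1.20 at 6m and from 1.19 to 1.22 at 24m, and these ranges overlap.

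**Figure D1:**
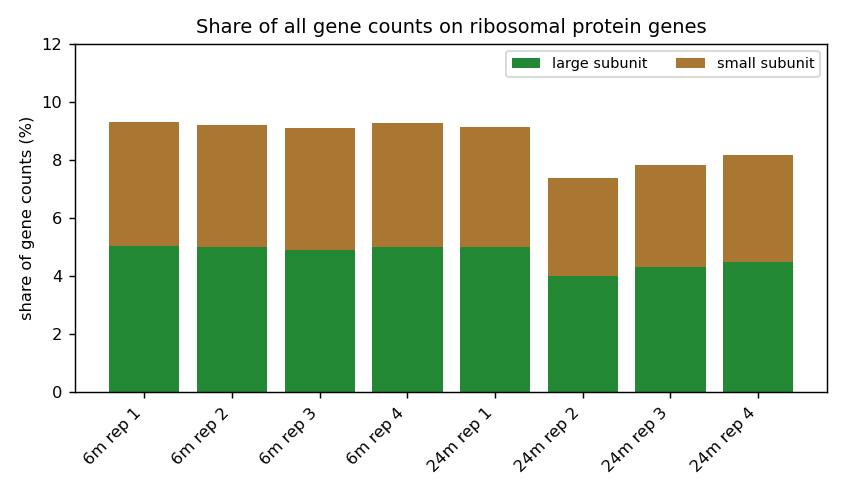
Share of all gene counts (%, vertical axis from 0) on the large and small subunit genes, stacked, in each of the 8 libraries. The 6m libraries sit between 9.12% and 9.30%, aged replicate 1 at 9.15% and the other aged libraries between 7.37% and 8.18%.

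The aged libraries differed among themselves in these genes more than the young ones did. The median over the members of the log2 ratio of CPM (the count divided by the TMM-scaled library size, in units of 1e6 counts) to the mean of the 6m libraries was -0.05 in aged replicate 1, -0.48 in replicate 2, -0.35 in replicate 3 and -0.27 in replicate 4. In the 6m libraries it lay between -0.01 and 0.01. Large and small subunit genes gave nearly the same value in each aged library, -0.47 and -0.48 in replicate 2, -0.32 and -0.36 in replicate 3, and -0.25 and -0.29 in replicate 4. Aged replicate 1 was the highest of the aged libraries for 66 of the 87 members, and replicate 2 the lowest for 65. Even so, aged replicate 1 was below every 6m library for 41 members, as replicate 2 was for 84, replicate 3 for 81 and replicate 4 for 70. Within a library, the rank order of the members hardly varied. Spearman's rho between any 2 libraries over the 87 members was 0.968 to 0.994, given as a description over genes that share libraries.

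**Figure D2:**
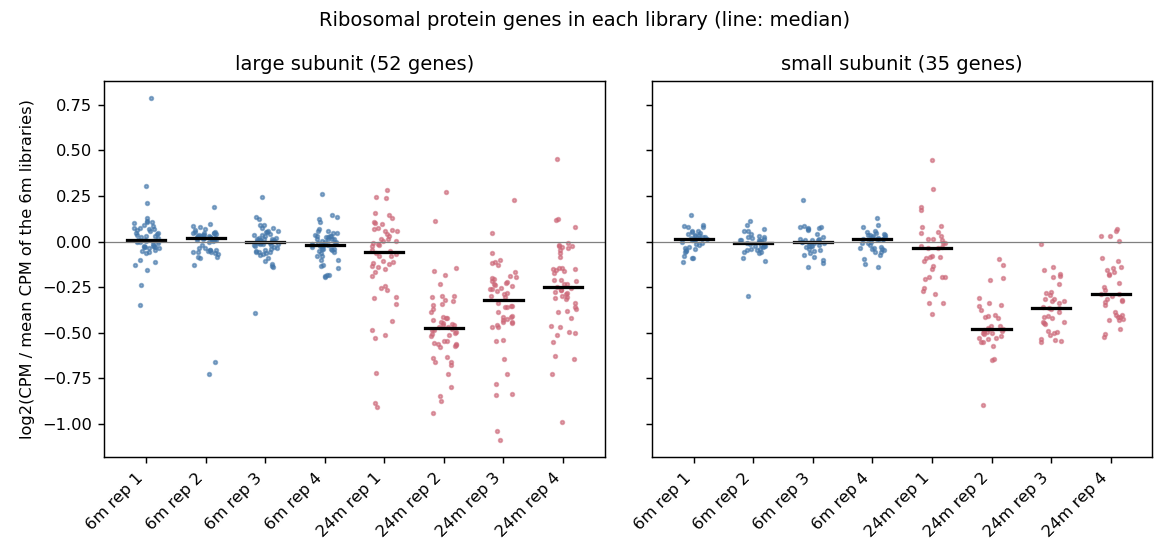
Each point is 1 member gene in 1 library, as the log2 ratio of its CPM to the mean CPM of the 6m libraries, for 52 large and 35 small subunit genes, and black lines are medians. Medians of the members lie near 0 in the 6m libraries, at -0.05 in aged replicate 1 and at -0.27 to -0.48 in the other aged libraries.

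Other values moved with the aged libraries. Markers of blood (5 genes, haemoglobins and Alas2) summed to 6090 to 10032 CPM at 6m and 3350 to 6283 CPM at 24m, and all 5 were called lower. Oligodendrocyte markers (6 genes) summed to 1870 to 2437 CPM at 6m and 2556 to 3448 CPM at 24m, with 4 called higher, and microglia markers (7 genes) to 463 to 511 and 606 to 791 CPM, with 3 of 5 tested called higher. Neuron markers (6 genes) summed to 1500 to 1686 CPM at 6m and, at 24m, to 1568 CPM in replicate 1 and 1733 to 1871 CPM in the others, with 4 called higher and 2 lower. Endothelial markers (6 genes) summed to 1063 to 1155 CPM at 6m and 768 to 918 CPM at 24m, with 2 of 3 tested called lower. Astrocyte markers (6 genes) overlapped in sum, at 2414 to 2875 and 2438 to 3164 CPM, with 2 called higher and 1 lower of 5 tested. The sums of choroid plexus markers (5 genes, 2812 to 4211 and 2179 to 4340 CPM), of immature neuron markers (6 genes, Dcx at 0 counts) and of liver and muscle markers (4 genes, Alb at 0 counts) overlapped too, with none called among 2, 1 and 1 tested. The share of mitochondrially encoded genes was 8.67% to 10.9% of counts at 6m and 6.48% to 8.94% at 24m, lowest in aged replicate 1. The part of these differences in the ribosomal protein result was not tested, apart from the fit without mitochondrially encoded genes, which also gave 48 members lower.

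Between the ages, 48 of the 87 members were lower at 24m and none was higher, at an adjusted p of at most 0.05 in the quasi-likelihood test of edgeR, adjusted after Benjamini and Hochberg over all 9375 tested genes (n = 4 per age). Over all tested genes, 9.42% were called lower and 12.3% higher, so the members' 55.2% lay above the background in 1 direction only. A share called also depends on counts, since a gene with more counts has a smaller SE and passes at a smaller log2FC. The members' share was not compared with that of genes of like counts. The differences were small. The median log2FC (24m against 6m) was -0.28, 0.821 times the 6m level, with members ranging from -0.93 to 0.23, whereas the median over all tested genes was -0.00337. The log2FC was negative for 85 members, and only Rpl4 and Rps2 were above 0. At an unadjusted p under 0.05, 66 members were lower and 1, Rpl4, higher. Only 3 members, Rpl27rt, Rpl21 and Rpl17, passed the fold minimum of 0.58 on the log2 scale as well, against 4.17% of all tested genes called lower and 10.3% called higher by that rule. Summed with the rows of their copies, Rpl21 (-0.52) and Rpl27rt (-0.37) were under that minimum. The number of calls depended on the scaling. DESeq2 called 42 members lower and none higher on the raw counts, but 8 lower and 1 higher on quantile-normalized counts. Quantile normalization is named in the methods, followed there by a row-wise median normalization that was not applied here. With limma-voom on quantile-normalized counts 21 were lower and 2 higher, and with a trend on canonical transcript length 18 and 2.

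Single libraries moved the number of calls. Leaving out aged replicate 1, the library near the 6m level, gave 67 members lower and 1 higher. Leaving out aged replicate 2, aged replicate 3 or 6m replicate 1 gave 29, 27 and 31 lower. The log2FC stayed negative in all 8 of these fits for 77 members, and 26 members were called lower in every one of them. In 38 members every aged library lay below every 6m library and in none above, against 9.96% and 11.1% of all tested genes.

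**Figure D3:**
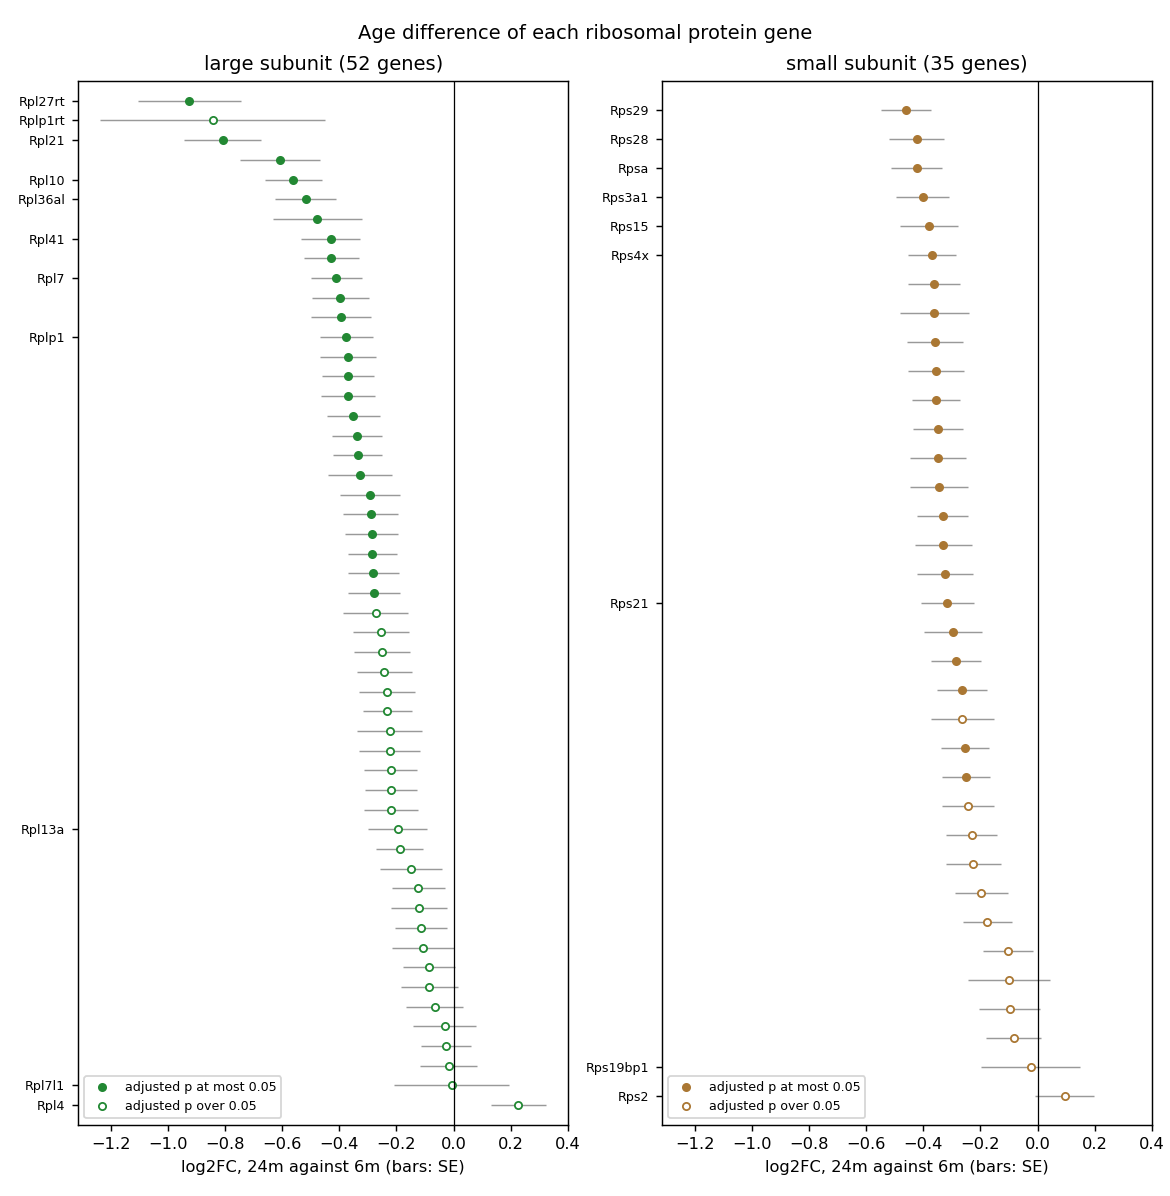
log2FC between the ages (24m against 6m, horizontal axis, bars are SE) of each member, ordered within the large (52) and small (35) subunit, with filled points for an adjusted p of at most 0.05 and labels for the members described singly. All points but Rpl4 and Rps2 lie below 0, and most lie between -0.5 and 0.

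Members of both subunits were called lower. Of the large subunit members, 25 of 52 (48.1%) were called lower, with a median log2FC of -0.28, and of the small subunit members 23 of 35 (65.7%), with a median of -0.32. The quartiles of the log2FC were -0.37 and -0.18 for the large and -0.36 and -0.23 for the small subunit. The spread was wider in the large subunit, which held the members of lowest and of highest log2FC. With 1 gene per protein of the mature ribosome, 22 of 46 large and 21 of 31 small subunit genes were lower, with medians of -0.25 and -0.32. The difference between the subunits was not tested, since genes are not replicates.

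In the large subunit, Rpl21 (chr5:146769699-146776408, plus strand) had the smallest p. It was at 155, 166, 169 and 152 CPM in the 6m libraries and at 86.9, 89.4, 75.5 and 110 CPM in the 24m libraries. All aged libraries were well below all young ones, and Rpl21 was lower by a log2FC of -0.81 ± 0.134 (SE, edgeR adjusted p = 0.000126). It rests on 57 to 143 counts per library and has the most near-identical copies of all members. The row BC004004 holds a coding sequence that matches at 98.5% of bases, with a log2 ratio of -0.24, and the sum of both rows went from 308 CPM ± 8.38 to 215 ± 21.3 (SD, n = 4 each), a log2 ratio of -0.52 without overlap. Rpl10, an X-linked gene (chrX:73314418-73316741, plus strand) whose protein joins the large subunit late in its assembly near the P site, was at 326, 347, 341 and 348 CPM at 6m and 252, 250, 206 and 218 CPM at 24m. The groups did not overlap, with a log2FC of -0.56 ± 0.0996 (edgeR adjusted p = 0.000287). Rows that hold a copy of this coding sequence had more counts than Rpl10, however. They are Rpl10-ps3, with an identical coding sequence, and Ide, which encodes another protein and has a transcript that matches at 99.8% of bases. Together these rows had 708 to 1511 counts per library against 161 to 284 for Rpl10, and a log2 ratio of only -0.14. Counts on Ide can come from its other transcripts, and the parts were not separated. Summed with both rows, the level of Rpl10 was 1637 CPM ± 52.3 at 6m and 1410 ± 83.0 at 24m (SD, n = 4 each), a log2 ratio of -0.22, without overlap. An exon of Dnase1l1 also lies on the strand opposite Rpl10.

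Rpl36al (chr12:69228230-69231234, minus strand) is the autosomal paralogue of the X-linked Rpl36a. Its levels were 283, 300.2, 279 and 300.1 CPM at 6m and 235, 176, 200 and 204 CPM at 24m, without overlap (log2FC -0.52 ± 0.106, edgeR adjusted p = 0.00113). It shares exon bases on its own strand with the predicted gene Gm49383, and summed with that row the log2 ratio was -0.43, without overlap. Rpl36a itself was lower by a smaller log2FC of -0.29 ± 0.0961 (edgeR adjusted p = 0.0318). Rpl7 (chr1:16169408-16174886, minus strand) was at 783, 852, 848 and 874 CPM at 6m and 599, 575, 630 and 713 CPM at 24m. All aged values were below all young ones, with a log2FC of -0.41 ± 0.0893 (edgeR adjusted p = 0.0019).

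Rpl27rt, a single-exon retrogene on chromosome 18, had the lowest log2FC of all members, -0.93 ± 0.180 (edgeR adjusted p = 0.000712). Its levels were low, 45.5, 59.7, 68.5 and 57.8 CPM at 6m and 35.1, 30.2, 28.2 and 29.2 CPM at 24m, without overlap, on 22 to 55 counts per library. By coding sequence its nearest annotated gene was Rpl29 (97.9% of bases), which fell by 0.34 on the log2 scale. The ratio of Rpl27rt to Rpl29 counts ranged from 0.0556 to 0.0814 at 6m and from 0.0423 to 0.0494 at 24m, so it did not follow Rpl29 in a fixed ratio as the pairs above did. Summed with the rows of its copies, Rpl29 among them, the log2 ratio was -0.37. Rpl17, a protein of the exit tunnel, had a log2FC of -0.61 ± 0.139 (edgeR adjusted p = 0.00288), with overlapping libraries. Rplp1rt was at 4 to 16 counts in every library, and its log2FC of -0.84 ± 0.394 did not pass (edgeR adjusted p = 0.129).

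Of the 3 large subunit members with the highest CPM, Rplp1 and Rpl41 were called lower and Rpl13a was not. Rplp1, a stalk protein that brings translation factors to the ribosome, had the highest CPM of all, 4645, 4663, 4446 and 4423 at 6m and 4187, 3249, 3289 and 3291 at 24m. Aged replicate 1 stood between the young libraries and the other aged ones, and the log2FC was -0.38 ± 0.0931 (edgeR adjusted p = 0.00528). Rpl41, the shortest ribosomal protein, was at 2501, 2466, 2461 and 2194 CPM at 6m and 2280, 1630, 1537 and 1706 CPM at 24m. Here aged replicate 1 was above the lowest young library, and the log2FC was -0.43 ± 0.103 (edgeR adjusted p = 0.00414). With the trend on canonical transcript length the log2FC was -0.16 for Rplp1 (edgeR adjusted p = 0.105) and -0.21 for Rpl41 (edgeR adjusted p = 0.0514). Rpl13a, a gene often used as a reference in quantitative PCR, was at 2291, 2235, 2247 and 2563 CPM at 6m and 2547, 1644, 1990 and 1985 CPM at 24m. Aged replicate 1 was close to the highest young library, and Rpl13a did not pass (log2FC -0.20 ± 0.104, edgeR adjusted p = 0.186).

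Rpl4, which lines the exit tunnel and has the longest coding sequence of the members (1257 bases), had the highest log2FC, 0.23 ± 0.0968. Its levels were 475, 530, 570 and 506 CPM at 6m and 546, 561, 609 and 711 CPM at 24m. The groups overlapped and the test was not passed (edgeR adjusted p = 0.0941). Rpl7l1, a nucleolar relative of Rpl7 that takes part in large subunit assembly, was at 23.5 to 48.0 CPM at 6m and 33.3 to 46.8 CPM at 24m, with a log2FC of -0.01 ± 0.201.

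**Figure D4:**
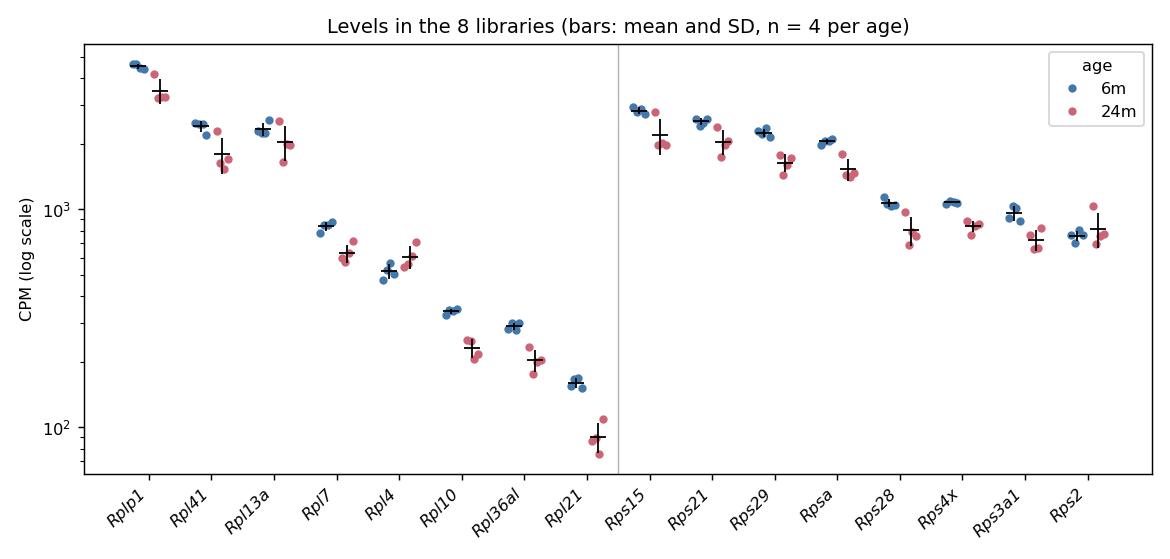
CPM (log axis) of 8 large subunit genes (left of the line) and 8 small subunit genes in the 4 libraries of each age, with bars for the mean and SD. The aged points of Rpl21, Rpl10, Rpl36al, Rps29, Rps4x and Rps28 lie below all young points, while those of Rpl13a, Rpl4 and Rps2 overlap them.

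In the small subunit, Rps29, a zinc-binding protein of the head with a coding sequence of 168 bases, had both the smallest p and the lowest log2FC. It lies at chr12:69204495-69205960 on the minus strand and was at 2298, 2215, 2359 and 2141 CPM at 6m and 1785, 1438, 1603 and 1727 CPM at 24m. The groups did not overlap, and the log2FC was -0.46 ± 0.0877 (edgeR adjusted p = 0.000563). Rpsa (chr9:119956755-119962787, plus strand), which encodes a protein near the mRNA exit that is also known as the laminin receptor, was at 1969, 2051, 2065 and 2115 CPM at 6m and 1794, 1446, 1412 and 1470 CPM at 24m. Aged replicate 1 was closest to the young range, and the log2FC was -0.42 ± 0.0892 (edgeR adjusted p = 0.00149). The lncRNA Gm5922 overlaps an exon of Rpsa on the other strand.

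Rps4x, X-linked in the mouse as in humans (chrX:101228542-101233014, minus strand), was at 1064, 1094, 1085 and 1075 CPM at 6m and 884, 763, 838 and 858 CPM at 24m. All aged libraries were below all young ones, and its log2FC was -0.37 ± 0.0834 (edgeR adjusted p = 0.00265). Summed with the row Gm15013, which matches at 96.6% of coding bases, the log2 ratio was -0.32. Rps28, at the mRNA exit, was at 1137, 1061, 1039 and 1044 CPM at 6m and 976, 686, 787 and 754 CPM at 24m, without overlap (log2FC -0.42 ± 0.0966, edgeR adjusted p = 0.00285). Rps3a1 was at 911, 1038, 1013 and 882 CPM at 6m and 762, 657, 663 and 820.0 CPM at 24m. Its groups were close but did not overlap (log2FC -0.40 ± 0.0933, edgeR adjusted p = 0.00323).

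Rps15, a head protein next to the decoding site, was the most abundant small subunit gene, at 2947, 2797, 2895 and 2736 CPM at 6m and 2800, 1970, 2010 and 1977 CPM at 24m. Aged replicate 1 lay inside the young range and the other aged libraries far below it (log2FC -0.38 ± 0.101, edgeR adjusted p = 0.00925). On quantile-normalized counts it lost the call, at -0.13 with DESeq2 (adjusted p = 0.393) and -0.15 with limma-voom (adjusted p = 0.0965). Rps21 was at 2611, 2427, 2498 and 2613 CPM at 6m and 2389, 1735, 1972 and 2065 CPM at 24m, without overlap. Its log2FC was -0.32 ± 0.093 (edgeR adjusted p = 0.0166), and it lost its call in 8 of 22 alternatives. These were the fits without 6m replicate 1 or 4 or aged replicate 2 or 3 (-0.24 to -0.30), those on quantile-normalized counts (-0.08 with DESeq2, adjusted p = 0.546, and -0.09 with limma-voom), library sizes alone (-0.22) and the canonical length trend (-0.12). Rps2, at the mRNA entry, was at 763, 703, 803 and 765 CPM at 6m and 1033, 695, 753 and 776 CPM at 24m. It did not pass (log2FC 0.10 ± 0.103, edgeR adjusted p = 0.554), and without aged replicate 1, its highest library, the log2FC was -0.03. Rps19bp1 was at 41.6 to 59.7 CPM at 6m and 42.2 to 62.5 CPM at 24m (log2FC -0.02 ± 0.173).

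Genes called lower were found in most, but not all, of the structural groups of the ribosome. The groups are small, and their shares differed. Over all members the share called lower was 55.2%, and over all tested genes 9.42%. In the P stalk, 1 of 4 members, Rplp1, was called lower, while Rplp0, Rplp2 and Rpl12 had log2FC of -0.23, -0.23 and -0.12. Neither member of the complex with the 5S rRNA, Rpl5 (-0.07) and Rpl11 (-0.22), which also bind Mdm2 when they are free of the ribosome, was called. Around the exit tunnel 6 of 10 were lower, namely Rpl17, Rpl31 (-0.43), Rpl38 (-0.37), Rpl35 (-0.35), Rpl26 and Rpl39 (-0.28 each), while Rpl19, Rpl22, Rpl23a and Rpl4 did not pass. At the mRNA entry and exit of the small subunit, Rpsa, Rps28 and Rps26 (-0.36) were lower, 3 of 7, while Rps3, Rps14 and Rps2 were among those that did not pass. At the decoding site and head, 6 of 7 were lower (Rps29, Rps15, Rps12, Rps27a, Rps19 and Rps23, from -0.46 to -0.27), Rps19 being the gene most often mutated in Diamond-Blackfan anaemia, and Rps25 (-0.20) did not pass. Rps6, the substrate of the S6 kinases, had a log2FC of -0.10 and did not pass.

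Among the members that none of these groups holds, Rpl35a (log2FC -0.48), Rpl28 (-0.40), Rpl37a (-0.39), Rpl8 (-0.37), Rpl37 (-0.34), Rpl29 (-0.34), Rpl36 (-0.33), Rpl32 and Rpl27a (-0.29 each) and Rpl13 (-0.28) were called lower in the large subunit. Rpl8, which had no near-identical copy, was at 1631 CPM ± 26.3 at 6m and 1263 ± 149 at 24m (SD, n = 4), and its groups did not overlap. In the small subunit Rps20 (-0.36), Rps16 (-0.35), Rps10 (-0.32), Rps15a (-0.30), Rps9 (-0.29) and Rps24 (-0.25) were called lower. The large subunit genes that did not pass included Rpl23 and Rpl10a (-0.25 each), Rpl24 (-0.24), Rpl27, Rpl30, Rpl34 and Rpl9 (-0.22 each), Rpl3 (-0.19), Rpl7a (-0.12), Rpl14 (-0.11), Rpl18 (-0.08), Rpl6 (-0.03) and Rpl15 (-0.02). Those of the small subunit included Rps18 (-0.23), Rps13 (-0.10) and Rps7 (-0.08). The SE of these members was 0.0826 to 0.156, and called and uncalled members met at a log2FC near -0.25.

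Among the paralogues, both Rpl36a and Rpl36al were called lower. Rps27 (-0.36) was called and Rps27l (-0.10) was not, Rpl7 was called and Rpl7l1 was not, and neither Rpl22 (-0.03) nor Rpl22l1 (-0.27) was. The ratio of Rpl22l1 to Rpl22 counts was 0.936 to 1.65, that of Rps27l to Rps27 at most 0.0655 and that of Rpl7l1 to Rpl7 at most 0.0814. Rpl10l and Rpl39l had no count in any library. The 4 X-linked members Rpl10, Rpl36a, Rpl39 and Rps4x were all called lower. Of the 30 members with a small nucleolar RNA gene within their bounds, 15 were lower, and of the 57 others 33, with medians of -0.27 and -0.29. Of the 39 members whose exons overlap a gene on the other strand, 23 were lower, and of the 46 with no overlapping exon 25.

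Members with a longer coding sequence had, on the whole, a higher log2FC. Of the 11 members with a coding sequence of up to 300 bases, 10 were lower, with a median log2FC of -0.36. Between 300 and 600 bases, 30 of 53 were lower with a median of -0.29, and between 600 and 1200 bases 8 of 21 with a median of -0.23. Neither of the 2 longer ones, Rpl3 and Rpl4, was called. Spearman's rho of coding length and log2FC was 0.378 over the 87 members, as a description, and -0.0653 over 9334 tested genes. The other tested genes had medians of -0.10, -0.02 and 0.05 in the same 3 classes, so the medians of the members lay lower in each. By the length of the annotated canonical transcript, which for Rpl37 reaches 6111 bases, other genes of up to 600 bases had a median of -0.16 and those over 4000 bases of 0.07, against -0.36 over 18 and -0.34 over 3 members. A fit with a trend on canonical transcript length gave 18 members lower and 2 higher (Rpl4 and Rps2), with medians of -0.10 and -0.14 for the large and small subunit. With a trend on coding length, 52 members were lower and none higher. The part of length in the age difference was not tested beyond these fits.

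**Figure D5:**
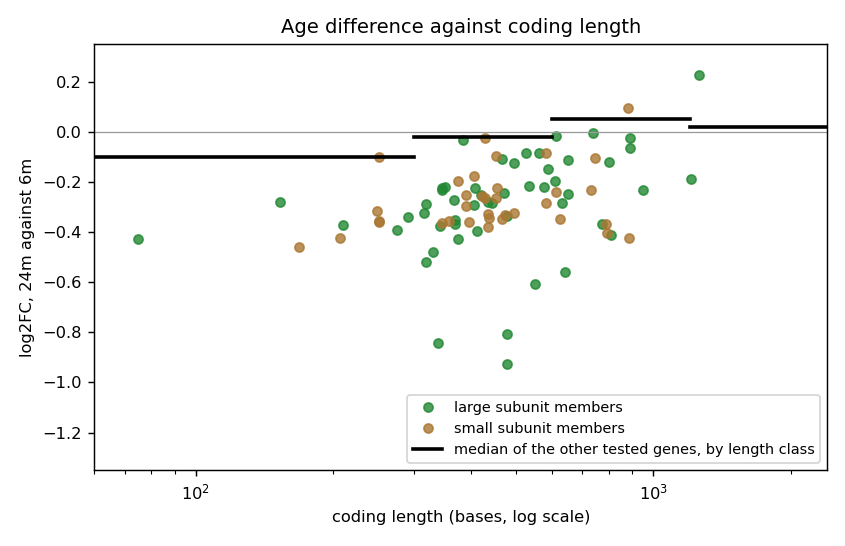
log2FC between the ages against coding length (bases, log axis) for each large and small subunit member, with black lines for the median of the other tested genes in each length class. Members of up to 300 bases have a median of -0.36 and those of 600 to 1200 bases of -0.23, and both lie under the black lines (-0.10 and 0.05).

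Of the ribosomal proteins with other names, Rack1, a signalling scaffold on the small subunit, was lower by a log2FC of -0.30 ± 0.100 (edgeR adjusted p = 0.0307), while Fau (-0.21) did not pass. Of 19 other mRNAs of the TOP class, 6 were lower and 1 higher. Npm1, a nucleolar chaperone, had a log2FC of -0.61 and elongation factor subunit Eef1g -0.38, while the initiation factor Eif4b rose by 0.82 (edgeR adjusted p = 0.0011). In the lists that follow, the share called lower was near the 9.42% of all tested genes and says nothing about them. Of 34 tested ribosome biogenesis factors, 3 were lower (Npm1, Nhp2 and Wdr12) and none higher, of 16 RNA polymerase I subunits and factors only Polr2l (-0.47), a subunit shared by the 3 nuclear polymerases, and of 10 genes of mTORC1, S6 kinase and TOP mRNA control only the S6 kinase Rps6kb2 (-0.89). These shares were 8.82%, 6.25% and 10%. The median log2FC of the TOP class and these 3 lists was -0.16, -0.23, -0.14 and -0.02. The 78 tested genes for mitochondrial ribosomal proteins had a median of -0.19, with 13 (16.7%) lower and none higher, a smaller share than the members' 55.2%. Genes with fewer counts are called less often, and the families were not matched for counts. The difference between them was not tested.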

How the data were processed

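Reads from ONT direct RNA sequencing were mapped by the authors to GRCm39 with minimap2 (version 2.24 in the submitters' processing notes) and counted with featureCounts, and raw counts for each gene were deposited. The counting settings are not given in the sources used here. Library totals were 573152 to 1255424 counts.

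Identifiers were matched to GENCODE vM39, which named 22281 of 22430 genes. Coding length, exons and starts are those of 1 representative transcript per gene. Testing, on genes whose mean count was over 5, used edgeR 4.0.16 (R 4.3.3, quasi-likelihood test, TMM-scaled library sizes, age as the only term), with Benjamini-Hochberg adjustment over 9375 genes. SE were derived from the log2FC and the F statistic. limma 3.58.1, DESeq2 1.42.0 and a replicate block served as alternatives, and the tests were checked on simulated counts. Copies were searched with BLAST+ 2.17.0.

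Per subunit, the text names the 5 members called with the smallest p, the 3 of highest CPM and the 2 of lowest and highest log2FC. All members of structural groups and paralogue pairs are described, and Rpl41, Rpl39 and Rps29 as the shortest. From other lists, at most 2 called genes per direction with the smallest p are given with values. Members and lists were chosen with earlier results of these data known. Rpl17, Rpl31, Rps26 and others outside the rule were named after their values were seen. Some members and 1 sequence are not reported here.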

Additional observations from a re-analysis of the deposited data

Results flagged for a closer look

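Of 50 groups of 4 libraries examined, 5 held 1 library far from the other 3. This was measured as its gap to the nearest library over the range of the group. For independent groups, chance alone gives about 1 group in 20. The groups here come from the same 8 libraries, so the flags are not separate results and cannot be set against that rate. In the aged group, replicate 1 stood above the others for Rplp1 (gap 0.955 of the range, 4187 CPM against 3249 to 3291), for Rps15 (0.952, 2800.0 CPM against 1970 to 2010) and for Rpsa (0.846, 1794 CPM against 1412 to 1470). In the young group, replicate 4 stood apart for Rpl41 (0.868, 2194 CPM against 2461 to 2501) and for Rpl13a (0.83, 2563 CPM against 2235 to 2291).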

How the results depend on the processing

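Against 48 members lower and none higher with medians of -0.28 (large) and -0.32 (small), limma-voom on quantile-normalized counts gave 21 lower, 2 higher and medians of -0.11 and -0.15, and DESeq2 on such counts 8 lower, 1 higher and -0.10 and -0.13. The trend on canonical transcript length gave 18 lower, 2 higher and -0.10 and -0.14. Library sizes alone gave 30 lower and 1 higher, with the median of all genes at 0.10, and a minimum of more than 5 counts in every library gave 1 higher. Every member called higher in these fits was Rpl4 or Rps2. Among the 41 members with no copy of the canonical transcript 26 were lower. Among the 5 with no copy of the coding sequence, a choice made after seeing the data as were the coding-length trend and the set without retrogenes, 1 was lower, none passed the fold minimum, and the medians were -0.61 and -0.10. Leaving out 1 library gave 27 to 67 lower (27 without aged replicate 3, 29 without aged replicate 2, 31 without 6m replicate 1) and 0 to 1 higher (Rpl4, without aged replicate 1). A replicate block gave 49 lower and none higher and changed no other count by over 1.5 times. Samples of the same number did not deviate together (r = 0.0509, 0.0018, 0.0052 and -0.135), so the numbers were not used as pairs. Rpl13a changed sign on quantile-normalized counts (0.04 with DESeq2, 0.02 with limma-voom) and with the canonical length trend (0.00). Rpl7l1 and Rps19bp1, near 0, changed sign in several fits, Rpl7l1 with DESeq2 (0.01), library sizes alone (0.10), no mitochondrially encoded genes (0.00), no filter (0.01), filterByExpr (0.02), the minimum in every library (0.04), the canonical length trend (0.17) and the replicate block (0.01), Rps19bp1 with library sizes alone (0.08), the minimum in every library (0.02), the canonical length trend (0.21) and the replicate block (0.00). Without 1 library, Rpl7l1 ranged from -0.14 to 0.11, Rps19bp1 from -0.10 to 0.06 and Rps2 from -0.03 to 0.17. The sums with near-identical copies, also chosen after seeing the data, carry no test.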
